A study of Drosophila melanogaster with 4 samples.

Results

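Rfabg and Lsp1gamma, which encode haemolymph proteins made in the fat body, differed in opposite directions between ovaries of snf148 mutant females and ovaries of wild-type females. Rfabg, the lipophorin gene, was higher in the mutant, and Lsp1gamma, a larval serum protein gene, was lower. They are the 2 genes, of 1283 in the authors' deposited tables, whose listed name is Rfabg or begins with Lsp and a digit. The rule uses names alone, although it was set with earlier results of these data known. Drosophila melanogaster has 4 genes whose names begin this way, and 3 of them (Lsp1alpha, Lsp1beta and Lsp2) are not among the listed genes. The tables hold only genes past the authors' threshold, so this says nothing about the levels of those 3.

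RNA of dissected ovaries was sequenced from 2 genotypes, with 2 libraries each. The mutant females were y w snf[148] v and were 3 days old as adults. The comparison females were y w and were virgins aged 0 to 24 hours; they are called wild type in the labels. Both genotypes thus carry the yellow and white alleles, the vermilion allele stands on the mutant chromosome alone, and age cannot be told apart from genotype in any value below. Whether the mutant females were virgins is not stated here, and the part of mating in these values was not tested. The product of snf belongs to the spliceosome, and female germ cells depend on it to splice Sex-lethal RNA in the female manner.

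Lipophorin is the main lipid carrier of insect haemolymph. Its protein core is made in the fat body as one long precursor, which is cut into a pair of apolipophorins that hold diacylglycerol, sterols and phospholipid. Tissues such as the ovary take up lipid from the particle through receptors of the LDL receptor family. The larval serum proteins are hexamerins, storage proteins that the fat body of the late larva secretes in bulk and takes back before metamorphosis as a store of amino acids. Lsp1gamma encodes a subunit of larval serum protein 1, beside the alpha and beta subunits. Cells of the larval fat body persist into the newly eclosed adult and are lost early in adult life.

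The listed locus of Rfabg runs from 1085532 to 1097899 on chromosome 4, and that of Lsp1gamma from 66430 to 68995 on chromosome 3L. The genome build behind these coordinates is not given in the sources used here. Rfabg is now named apolpp. In the reference annotation it has 4 transcripts of 8 exons each, 10287 to 11356 nucleotides long, which share 1 coding sequence of 3351 codons. Lsp1gamma has 1 transcript of 2 exons and 2501 nucleotides, with 772 codons. Both genes lie on the plus strand. No gene overlaps Lsp1gamma, whereas Zyx, which encodes zyxin and lies on the minus strand, shares 96 exonic bases with each of 2 Rfabg transcripts. Annotated transposable elements also overlap the Rfabg gene, and 1 of them, INE-1, lies on its own strand. Whether they share exonic bases with Rfabg was not analysed. The libraries were stranded, but the strand setting of the counting is not given in the sources used here.

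Rfabg stood at a mean of 59.8 FPKM in snf148 ovaries and 25.3 FPKM in wild type. FPKM counts sequenced fragments per kilobase of transcript, scaled to the number of mapped fragments, so levels of the 2 genes can be compared. Each value is the authors' mean of a genotype, with no replicate error beside it and an unknown depth behind it. The ratio was 2.36-fold, or 1.24 on the log2 scale, towards the mutant. The authors' deposited table gives Rfabg a P value of 5e-05 and an adjusted P value of 0.00126. In bulk ovaries, fewer cells of a type and less RNA per cell cannot be told apart.

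Lsp1gamma stood at a mean of 39.0 FPKM in snf148 and 141 FPKM in wild type. It was thus lower in the mutant, 3.61-fold, or -1.85 on the log2 scale. The authors' deposited table gives Lsp1gamma the same P value, 5e-05, and the same adjusted P value, 0.00126. These are the smallest values in the tables and are shared by 36.3% of all listed genes, so they do not order Lsp1gamma or Rfabg against other genes. Whether the libraries of a genotype overlap with those of the other was not tested, because no value per library was at hand.

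The order of the genes changed between the genotypes. In wild type the mean of Lsp1gamma was 5.56 times that of Rfabg. In snf148 the mean of Lsp1gamma was 0.652 times that of Rfabg. The ratio of Lsp1gamma to Rfabg was thus 8.52-fold lower in the mutant. The scaling of one genotype against the other cancels in this comparison, which has no replicate error either.

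**Figure D1:**
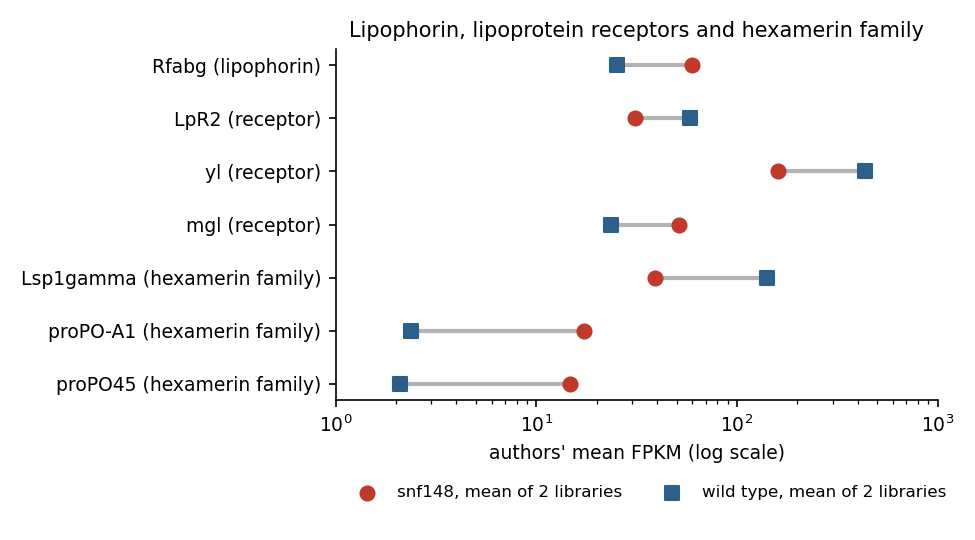
The authors' mean FPKM on a log axis in snf148 (red circles) and wild type (blue squares) for Rfabg, Lsp1gamma and the other listed genes of the lipophorin, receptor and hexamerin lists; each point is the mean of 2 libraries and no error bar can be drawn. Rfabg, mgl, proPO-A1 and proPO45 lie further right in snf148, and Lsp1gamma, yl and LpR2 further right in wild type.

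Of the listed genes, 51.8% were higher and 48.2% were lower in snf148, and of Rfabg and Lsp1gamma 1 stood in each direction. The ratio of Rfabg was small among the higher genes. It ranked at 508 of 665 by size of the ratio, and the median log2 ratio of the higher genes was 2.37. That rank and median include genes at 0 FPKM in wild type, whose ratio is infinite. Without such genes the median ratio was 4.79-fold, against 2.36-fold for Rfabg. The level of Rfabg was high among the higher genes: 59.8 FPKM ranked at 131 by the larger of the 2 means, against a median of 14.1 FPKM. The ratio of Lsp1gamma was large among the lower genes. It ranked at 138 of 618, where the median log2 ratio was -1.07, and its 141 FPKM in wild type ranked at 127, against a median of 63.5 FPKM. Neither reached 4-fold, as 40.1% of all listed genes did.

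The genes differ in length, and with it in the number of fragments behind a mean. Multiplied by the length of the shortest annotated transcript, the means of Rfabg correspond to about 616 fragments per 1000000 mapped in snf148 and 261 in wild type. Those of Lsp1gamma correspond to about 97.6 and 352. The larger count of fragments in the mutant thus belonged to Rfabg by a wider margin than its FPKM shows. Lsp1gamma had the larger one in wild type on both scales.

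**Figure D2:**
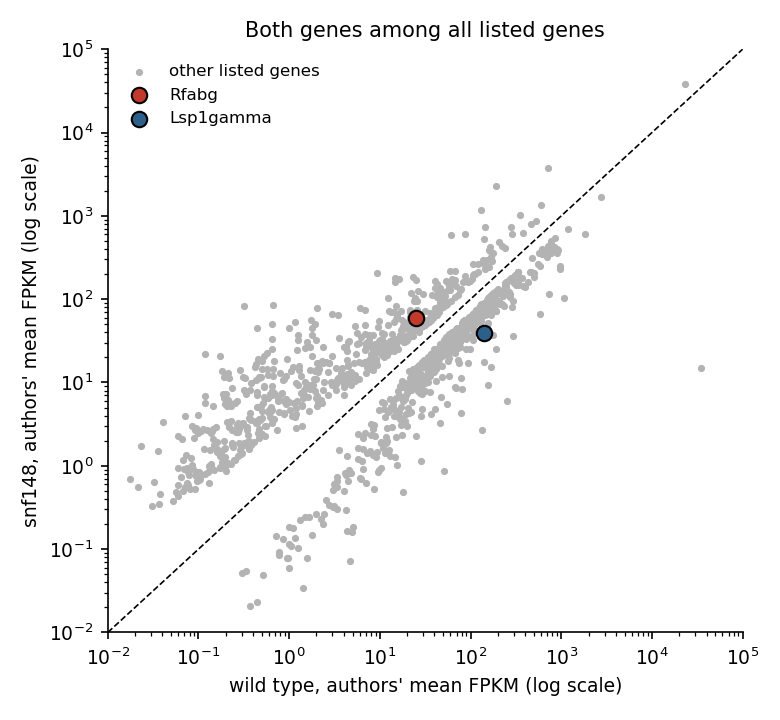
The authors' mean FPKM in snf148 against that in wild type, both on log axes, for the 1242 listed genes above 0 in both groups; the 41 genes at 0 in 1 group are not drawn and the dashed line marks equal means. The empty band along the line follows from the tables holding only genes past the authors' threshold. Rfabg, at 59.8 against 25.3 FPKM, lies above the line near the band, and Lsp1gamma, at 39.0 against 141 FPKM, lies below the line.

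Genes that work with lipophorin were looked up in fixed lists. Rfabg was the only gene listed of 4 for lipophorin assembly and lipid transfer, so Apoltp, the lipid transfer particle gene, and Mtp, needed for loading lipid onto the precursor, were not analysed here. Of 5 receptor genes 3 were listed, 1 higher and 2 lower in snf148, and the rest were not analysed here. Among all listed genes 51.8% were higher, the share to set beside this count and those of the lists below. LpR2, a lipophorin receptor used by the ovary to take up neutral lipid, stood at 30.9 FPKM in snf148 and 58.6 FPKM in wild type. Its log2 ratio was -0.92, against 1.24 for Rfabg, the ligand gene. The gene yl, which encodes the receptor for yolk proteins, had means of 160 and 435 FPKM, a log2 ratio of -1.45. In contrast mgl, which encodes the megalin homologue, stood at 51.2 against 23.6 FPKM, a log2 ratio of 1.12. All 3 had an adjusted P value of 0.00126 in the authors' deposited table.

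Lsp1gamma was likewise the only storage protein listed of its family. Of 8 genes of the hexamerin family and its relatives 3 were listed, of which 2 were higher and 1, Lsp1gamma, was lower. The higher ones were prophenoloxidase genes, whose products share the haemocyanin fold with hexamerins but are enzymes of melanin formation made in crystal cells, a type of blood cell. PPO1, listed as proPO-A1, stood at 17.2 FPKM in snf148 and 2.37 FPKM in wild type. PPO2, listed as proPO45, stood at 14.7 against 2.11 FPKM. Their log2 ratios were 2.86 and 2.80, with adjusted P values of 0.00126 in the authors' deposited table. The value of proPO-A1 is uncertain: its listed locus spans 51.6 kb, although the gene spans 2.75 kb in the reference.

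The genes of lipid storage, synthesis and sterol transport were listed in 4 of 25 cases, 1 higher and 3 lower. The perilipin gene Lsd-1, which coats lipid droplets, stood at 24.1 FPKM in snf148 and 53.3 FPKM in wild type. CG3523, the fatty acid synthase gene FASN1, stood at 59.9 against 119 FPKM. The sterol transport gene Npc2b stood at 18.1 against 56.7 FPKM. Npc1a, which moves sterol out of endosomes, was the higher one, at 64.4 against 42.2 FPKM. The log2 ratios ran from -1.64 for Npc2b to 0.61 for Npc1a. In the authors' deposited table the adjusted P values were 0.00126 for CG3523, 0.00223 for Npc2b, 0.032 for Lsd-1 and 0.0341 for Npc1a.

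Other secreted proteins of the haemolymph were listed in 3 of 16 cases, 1 higher and 2 lower. Fondue (fon), a clot protein, stood at 26.7 FPKM in snf148 and 62.1 FPKM in wild type, and Nplp2, a neuropeptide-like precursor, at 362 against 906 FPKM. Transferrin (Tsf1), an iron carrier, stood at 270 against 140 FPKM. Its log2 ratio of 0.94 was in the direction of Rfabg, and those of fon, -1.22, and Nplp2, -1.32, were in the direction of Lsp1gamma.

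The tables held 8 of the 17 genes of the fat body list, and of these 4 were higher and 4 lower, including Rfabg and Lsp1gamma. The median log2 ratio of the 8 was 0.13. The other 3 higher genes were Yp1, Yp2 and Yp3, which encode yolk proteins, with log2 ratios of 3.16, 2.34 and 1.93; follicle cells make these proteins too. Without the yolk protein genes, a division chosen after the values were seen, Rfabg was the only higher gene of 5 and the median was -1.14. The lower ones beside Lsp1gamma, Lsd-1 and CG3523 included tobi, an insulin-responsive glucosidase gene, at 1.97 FPKM in snf148 and 11.9 FPKM in wild type. The summed means of those 5 genes were 185 FPKM in snf148 and 350 FPKM in wild type, and those of the yolk protein genes were 2436 and 416 FPKM. No listed fat body gene was at 0 in either genotype. The largest adjusted P values of the list in the authors' deposited table were 0.032 for Lsd-1 and 0.0183 for tobi. The part of fat body tissue in the difference of Rfabg or Lsp1gamma was not tested.

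Haemocyte genes, another possible source of RNA around the ovary, were listed in 7 of 13 cases, 5 higher and 2 lower. Among all listed genes 51.8% were higher. The median log2 ratio of the 7 was 1.95, and it includes the uncertain value of proPO-A1. Peroxidasin (Pxn), an enzyme of the extracellular matrix, stood at 94.8 FPKM in snf148 and 24.6 FPKM in wild type, and the scavenger receptor gene Sr-CI at 12.5 against 4.87 FPKM. The prophenoloxidase genes above and lz, a Runt transcription factor gene of crystal cells at 0.483 against 0.0565 FPKM, made up the rest of the higher ones. The collagen IV genes Cg25C and vkg were lower, at 135 against 242 and 162 against 253 FPKM; fat body and follicle cells also make collagen IV. Summed over the list, the means were 437 FPKM in snf148 and 529 FPKM in wild type. Cg25C and vkg made up most of both sums, so the sums do not show the direction of the other 5 genes. The largest adjusted P values of the list in the authors' deposited table were 0.0377 for vkg, 0.0304 for lz and 0.0256 for Sr-CI. None was at 0 in either genotype, and the part of haemocytes in these differences was not tested.

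**Figure D3:**
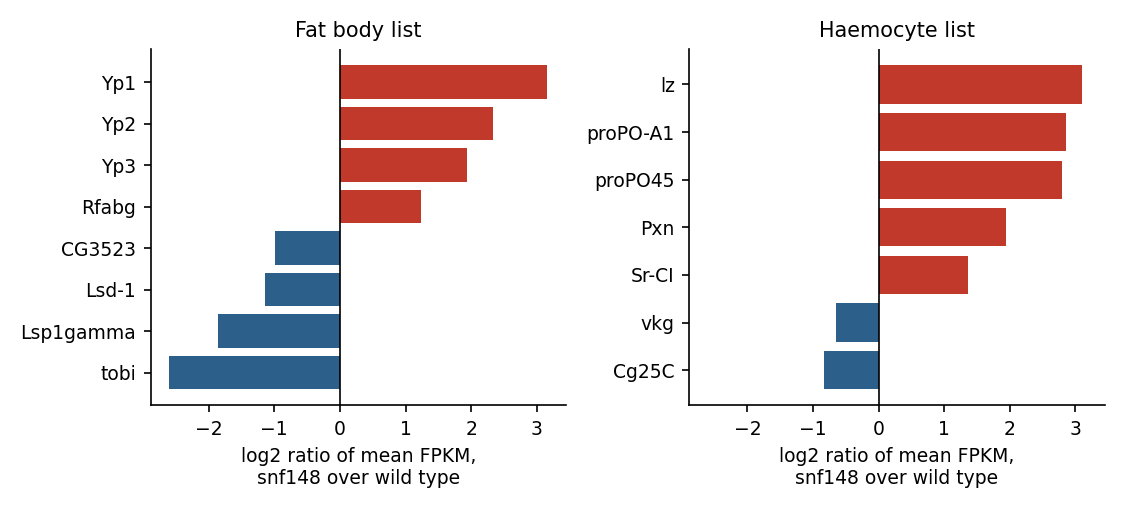
The log2 ratio of the authors' mean FPKM, snf148 over wild type, for the listed genes of the fat body list (left) and the haemocyte list (right); bars start at 0, red for higher in snf148 and blue for lower, with no error at hand. Rfabg, at 1.24, stands with the yolk protein genes, and Lsp1gamma, at -1.85, with tobi, Lsd-1 and CG3523.

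The tables held 9 of the 16 genes of the ovary list. Of these, 3 were higher and 6 lower, and none was at 0 in either genotype. Among germline genes, oskar (osk), which organises germ plasm, was at 248 FPKM in snf148 and 967 FPKM in wild type, and the Bruno gene, listed as aret, at 252 and 580 FPKM. The translation regulator gene orb was closer to the levels of Rfabg and Lsp1gamma, at 71.9 FPKM in snf148 and 191 FPKM in wild type. Genes of follicle cells went both ways. The adhesion gene Fas3 was higher in the mutant, at 165 against 53.2 FPKM, as were the eggshell genes Vm26Aa, at 219 against 67.9 FPKM, and dec-1, with means of 138 and 40.9 FPKM. The chorion genes Cp15 and Cp18, expressed late in follicle cells, were lower, at 67.2 against 578 and 5.98 against 251 FPKM. The sums over the list were 1326 FPKM in snf148 and 3164 FPKM in wild type.

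Rfabg is among 5 listed genes of chromosome 4, the smallest autosome, all of them higher in snf148, where 51.8% of all listed genes were higher. Its ratio was the second smallest of the 5, after that of CG11155 at 31.9 against 15.8 FPKM. The nearest listed gene after Rfabg is sv, which encodes a Pax transcription factor and begins 11.5 kb beyond its end, at 0.863 FPKM in snf148 and 0.203 FPKM in wild type. The nearest one before it, CG9935, ends 418 kb away and stood at 1.53 against 0.286 FPKM. Adjusted P values in the authors' deposited table were 0.0495 for sv and 0.0208 for CG9935. The mean of Rfabg in wild type was above those of the other 4. In the reference annotation 1 protein-coding gene lies between Rfabg and sv.

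Lsp1gamma lies near the tip of 3L, on which 106 listed genes were higher and 112 were lower. The share higher in snf148 was 48.6% on 3L, against 51.8% of all listed genes. The nearest listed neighbours of Lsp1gamma differed in direction from each other. The one before it, mthl8, a receptor gene of the methuselah-like family, ends 40.1 kb away and was higher in snf148, at 11.6 against 0.494 FPKM. The one after it, CG32344, begins 252 kb beyond its end and was lower, at 36.6 against 58.5 FPKM. Adjusted P values in the authors' deposited table were 0.00126 for mthl8 and 0.0289 for CG32344. Between Lsp1gamma and mthl8 the reference annotation has 1 protein-coding gene.

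**Figure D4:**
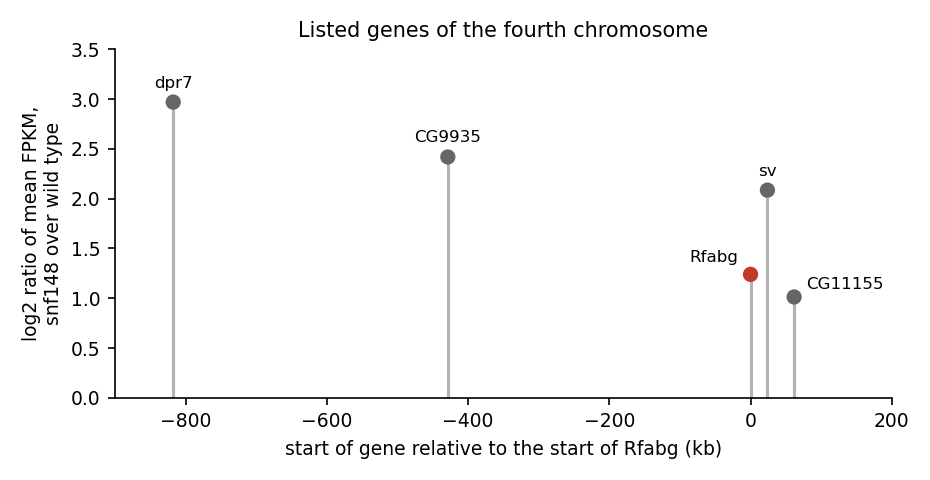
The log2 ratio of the authors' mean FPKM, snf148 over wild type, of the 5 listed genes of chromosome 4, against the distance in kb of each gene's start from the start of Rfabg (red). All 5 lie above 0, with dpr7 at 2.97 and CG11155 at 1.01, and Rfabg at 1.24.

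The listed genes with the most similar pair of means were found by Euclidean distance between log2 means, with 0.1 FPKM added, over the 2 genotype means. With only 2 values per gene, such likeness describes level and ratio alone. For Rfabg the nearest were Ncc69, a cation-chloride cotransporter gene at 58.1 against 24.5 FPKM, then trbl, a pseudokinase gene at 62.5 against 25.1 FPKM, then CG17224, CR43651 and the clock gene tim. Their distances were 0.063 to 0.16. For Lsp1gamma they were ade3, a gene of purine synthesis at 47.7 against 152 FPKM, then CG16836, CG42807, CG11674 and BicC, an RNA-binding protein gene of oogenesis at 51.7 against 155 FPKM. Their distances were 0.31 to 0.43, so the nearest genes of Lsp1gamma lay farther from it than those of Rfabg did. None of the 10 genes is on the fat body list, but only 8 of all 1283 listed genes are. Their absence among 10 genes therefore says little.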

How the data were processed

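Total RNA was made into stranded libraries read as 100-base paired ends, per the labels' protocols. TopHat2 2.0.9 and Cuffdiff, without a version, are named in the submitters' processing notes. Per the file headers, the authors deposited for each listed gene a mean FPKM per genotype, the log2 of wild type divided by snf148, and a P value with its adjusted form. The authors' names of direction run the same way, from snf148 to wild type. Rfabg is thus deposited as downregulated and Lsp1gamma as upregulated, opposite to the directions given here for snf148. No value per library was at hand, so the planned fit across libraries was replaced by the deposited P values. Depth is unknown. The libraries are not stated to come from separate flies, so these P values may measure technical spread.

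Ratios were recomputed from the means as snf148 over wild type with pandas 2.3.3. Those of Rfabg and Lsp1gamma differed from the deposited log2 values by at most 2.93e-06. Locus starts were moved by 1 to count from 1. Of 1283 names, 1265 matched the reference; 537 loci had its span and 129 of these its start, so its build differs and none of its coordinates is given. The ratio and distance computations were tested on simulated data.

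Members and gene lists were chosen with earlier results of these data known. Named genes were the members, all listed genes of the lipophorin, receptor and hexamerin lists, up to 4 per direction of other lists by FPKM, the nearest listed neighbours and the 5 nearest genes by means. The genes lz, orb, Cp18, dpr7 and CG11155 fall outside that rule and were named after their values were seen. Of the list names, all but 1 matched the reference. No test of a list was run.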

Additional observations from a re-analysis of the deposited data

How the results depend on the processing

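With pseudocounts of 1 and 0.1 FPKM, and with the authors' deposited log2 values, the log2 ratios of Rfabg and Lsp1gamma kept their direction and moved by less than 0.1. With the adjusted P value limited to 0.01, and at 1 FPKM or more in the higher group, both remained listed. Under the limit of 0.01 the fat body list held 4 higher and 2 lower genes, against 4 and 4 without it. The haemocyte list then held 3 and 1, against 5 and 2, and the lipid storage list 0 and 2, against 1 and 3. Counts of the other lists stayed the same. At 4-fold or more, 0 members were higher and 0 lower; of the 31 distinct listed genes of the lists, 15 higher and 16 lower, 5 and 3 were left, by construction of the minimum. The share of listed genes higher in snf148 was 54.9% under the limit of 0.01 and 49.4% at 1 FPKM or more, against 51.8% of all; the cause was not tested. The fat body list held 1 higher and 4 lower genes without the yolk protein genes, an alternative chosen after seeing the data. All 5 nearest genes of Rfabg, and all 5 of Lsp1gamma, were the same with a pseudocount of 1. No paired analysis was possible because no value per library was at hand, and for the same reason no replicate could be left out. Only genes past the authors' threshold were analysed, so counts over lists cover no gene outside the tables.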

Other observations

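The listed locus of Rfabg, 12368 bp, has the span of 1 of its 4 annotated transcripts in the reference, apolpp-RB. Of the other transcripts, 2 begin 2228 and 3937 bp further upstream, outside that span. All 4 share 1 coding sequence, so a gene-level FPKM over the listed locus covers the coding exons of each but not the first exons of those 2. Which start sites were used in either genotype was not analysed here. The listed locus of Lsp1gamma, 2566 bp, has the span of its 1 annotated transcript.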
